A study of Mus musculus with 54 samples.

Results

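Elastic fibre and tendon-like matrix genes were followed in the RNA of mice given Cmpd60, an inhibitor of histone deacetylases 1 and 2. The 10 genes were taken by symbol, out of 54232 Ensembl genes in the count files: Scx (ENSMUSG00000034161), Emilin1 (ENSMUSG00000029163), Eln, Fbn1, Fbln1, Fbln5, Mfap4, Mfap5, Ltbp2 and Lox. They were chosen by name with their response in the aged heart already known, so their heart values of Cmpd60 against vehicle are a description without a test, and only other genes are tested there. The 10 were tested in kidney and brain, where earlier results were known too.

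Aged male BL6 mice of about 20 months received intraperitoneal injections every day for 14 days, of 22.5 mg/kg Cmpd60 or of its vehicle of DMSO, PEG400 and saline. RNA was counted in hearts of 5 Cmpd60 and 6 vehicle mice, kidneys of 6 and 5, and brains of 6 and 6. A second cohort of 6 to 7 months gave brains of APPSWE-1349 mice, which carry a transgene for human amyloid precursor protein with the Swedish mutation, and of their littermates, under the same treatments. The labels do not say which tissues came from the same mouse. The paper reports fewer aged mice than there are aged libraries, so tissues must share mice. Comparisons between tissues took libraries as separate mice, so their SE and p-values leave this sharing out. Each library is a tissue extract of mixed cells, in which fewer cells of a type and less RNA per cell cannot be told apart.

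An elastic fibre is a core of elastin laid on a scaffold of microfibrils. Fibrillin-1, encoded by Fbn1, forms the microfibrils, Mfap4 and Mfap5 encode glycoproteins bound to them, and Ltbp2 encodes a latent TGF-β binding protein family member that binds fibrillin. Fibulins, of which Fbln1 and Fbln5 are examples, attach elastin to the scaffold, Emilin1 sits at the interface of elastin and microfibril, and lysyl oxidase, from Lox, crosslinks the elastin. Scleraxis, from Scx, is a transcription factor of the basic helix-loop-helix class known from tendon and from heart valves. Such fibres give large arteries, valves and lung their recoil.

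The aged libraries held 23584609 to 57430113 gene counts each, the median library 28719566. The tissue labels held for their defining genes. Summed over 5 cardiomyocyte genes, hearts ran from 43511 to 53456 CPM (counts scaled to library size) and kidneys from 1.21 to 14.6 CPM. Summed over 3 neuron genes, vehicle brains ran from 3718 to 4256 CPM. Over 7 kidney genes, vehicle kidneys summed to between 11097 and 13404 CPM and Cmpd60 kidneys to between 6746 and 13900 CPM. The part of this wider spread in the kidney values below was not tested. Kidney groups follow the sample names, the source names and the column headings of the study's tables; a treatment field in the kidney labels gives the opposite, and if it were right every kidney log2 fold change of Cmpd60 below would have the other sign. A brain library of the APPSWE-1349 mice, whose treatment the sources give in 2 ways, was left out of the fits.

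Compared per kb of exon, the vehicle hearts held most Fbln1, at 25.8 ± 3.15 CPM per kb (SD, n = 6), followed by Eln at 21.5 ± 5.86, which overlapped it. Mfap4 (7.98 ± 1.17 CPM per kb), Fbn1 (7.96 ± 1.12), Emilin1 (6.95 ± 0.813) and Fbln5 (6.13 ± 0.573) formed the middle of the order, in which each overlapped its neighbours. Mfap5 (4.64 ± 0.464), Scx (3.22 ± 0.846), Ltbp2 (1.85 ± 0.240) and Lox (1.85 ± 0.757) stood lowest.

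The order of tissues depended on the gene. CPM were scaled within each tissue and not across tissues, so the levels below are a description without a shared scaling. In vehicle mice Eln, Fbn1, Fbln1, Mfap4 and Mfap5 were highest in heart, middle in kidney and lowest in brain, with no overlap between neighbouring tissues. Mfap5 spanned the widest range, from 16.7 ± 1.67 CPM in heart (SD, n = 6) to 1.34 ± 0.380 in kidney (n = 5) and 0.198 ± 0.118 in brain (n = 6), where the lowest library held 1 count. Fbln5 and Emilin1 were instead highest in kidney: Fbln5 lay at 176 ± 34.0 CPM there against 35.8 ± 3.34 in heart, and Emilin1 at 66.9 ± 11.2 against 34.3 ± 4.01. Lox in kidney (13.3 ± 6.10 CPM) overlapped Lox in heart (8.68 ± 3.56). Scx and Ltbp2 were the flattest, with neighbouring tissues overlapping throughout: Scx lay at 3.76 ± 0.578 CPM in brain, 3.66 ± 0.961 in heart and 2.26 ± 0.699 in kidney.

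**Figure D1:**
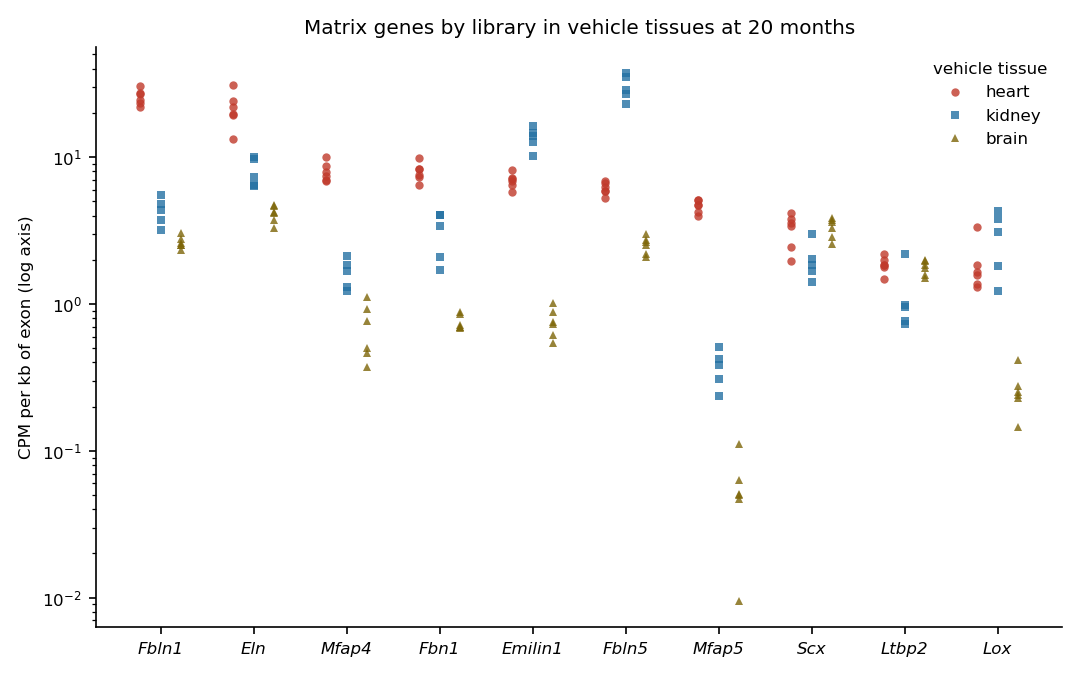
Level of each gene in every vehicle library of 20-month heart (n = 6), kidney (n = 5) and brain (n = 6), in CPM per kb of exon on a log axis, with genes ordered by their mean in heart. Fbln5 and Emilin1 are highest in kidney, Scx and Ltbp2 lie close together in all 3 tissues, and Mfap5 falls furthest from heart to brain. CPM were scaled within each tissue.

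Between vehicle kidney and vehicle brain, a comparison the choice of genes did not use, 9 of the 10 differed by edgeR's quasi-likelihood test with Benjamini-Hochberg adjustment at 0.05. Higher in kidney were 8 of them, where 37.3% of all genes tested were, and lower was 1, where 43.2% of all genes were. The difference was largest for Emilin1 (log2 4.34 ± 0.15 SE, adjusted p = 1.6e-14), then Fbln5 (3.76 ± 0.12, adjusted p = 1.1e-14) and Lox (3.64 ± 0.31, adjusted p = 7.8e-09). Scx was the exception, lower in kidney by log2 -0.54 ± 0.20 (adjusted p = 0.0176). Ltbp2 differed by log2 -0.48 ± 0.23 and did not pass (adjusted p = 0.0610). These log2 values stand beside a median over all genes of -0.17, which became -0.27 with DESeq2 size factors, and under that scaling Ltbp2 passed as well.

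In the heart, Scx and Emilin1 stood furthest from their vehicle levels, while elastin, fibrillin-1, both fibulins and Mfap5 overlapped broadly between the groups. In the fit over all genes 2 of the 10 genes passed the threshold, both higher, against 1.18% of the 19452 genes tested (0.756% higher); since the genes were chosen on this contrast, nothing is read from that count. The median log2 fold change over the 10 was 0.05, and over all genes -0.001. No gene of the 10 separated the 2 groups fully, which 2.69% of all genes did.

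Scx lay at 7.47, 7.06, 6.11, 4.60 and 7.65 CPM in Cmpd60 hearts 68 to 72. The 6 vehicle hearts ran from 2.23 to 4.74 CPM around a median of 3.94. Heart 71 was the only Cmpd60 heart below a vehicle heart, library 65, so 4 of 5 stood above all vehicle hearts. The log2 fold change was 0.85 ± 0.19 (SE), or 1.80-fold. Scx is a thin measurement, with as few as 54 counts in a vehicle heart and 111 in a Cmpd60 heart. Its gene lies within Bop1, a ribosome assembly gene, in RefSeq. Bop1 itself had a mean of 20.9 CPM in both groups, a log2 fold change of -0.002 ± 0.10 (adjusted p = 0.997).

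Emilin1, whose product joins elastin to the microfibrils and is known to restrain TGF-β, lay at 45.5, 65.9, 46.7, 40.5 and 61.6 CPM in Cmpd60 hearts 68 to 72. Vehicle hearts ran from 28.7 to 40.7 CPM, with a median of 34.5. Again heart 71 alone crossed into the vehicle range, just below library 65. The log2 fold change was 0.60 ± 0.12 (SE), or 1.52-fold, and hearts 69 and 72 stood highest.

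**Figure D2:**
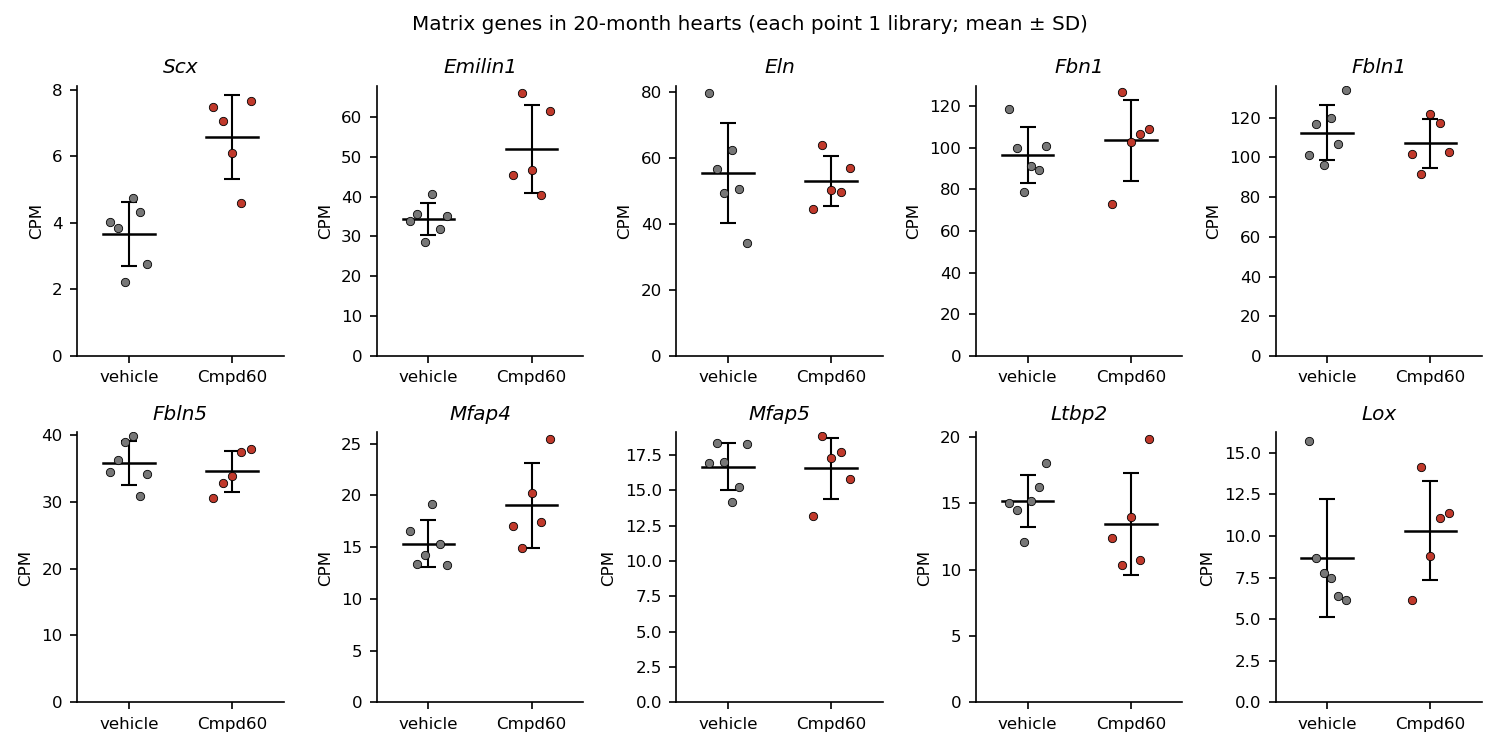
CPM of the 10 genes in 6 vehicle and 5 Cmpd60 hearts of 20 months; each point is 1 library, the line and bar are the mean and SD, and all axes start at 0. Scx and Emilin1 are higher with Cmpd60 apart from 1 heart that touches the vehicle range. The other 8 genes overlap, Mfap4 with 2 Cmpd60 hearts above every vehicle heart.

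Among the scaffold genes, Mfap4 was the next highest. It lay at 17.0, 14.9, 20.3, 17.5 and 25.5 CPM in Cmpd60 hearts 68 to 72 and from 13.3 to 19.2 CPM, median 14.8, in vehicle hearts, a log2 fold change of 0.31 ± 0.13. The groups overlapped, and 2 Cmpd60 hearts stood above every vehicle heart. Fbn1 ran from 73.1 to 127 CPM with Cmpd60 and from 78.5 to 119 CPM with vehicle (log2 0.10 ± 0.12). Mfap5 ran from 13.2 to 18.8 CPM against 14.2 to 18.4 CPM (log2 -0.01 ± 0.10).

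The elastin core and its partners overlapped between the groups as well. Eln lay at 44.6, 63.9, 50.3, 49.8 and 57.1 CPM in Cmpd60 hearts 68 to 72, inside the vehicle range of 34.2 to 79.7 CPM with its median of 53.8, a log2 fold change of -0.06 ± 0.16. Fbln1 had a log2 fold change of -0.07 ± 0.09 and Fbln5 one of -0.05 ± 0.08, both over overlapping ranges. Ltbp2 had a log2 fold change of -0.17 ± 0.15, with heart 72 at 19.8 CPM and the other 4 Cmpd60 hearts between 10.3 and 14.0 CPM. Without heart 72 the Ltbp2 value was -0.36 ± 0.12, and without heart 69 it was -0.09. Lox, the crosslinking enzyme, ran from 6.18 to 14.1 CPM with Cmpd60 and from 6.12 to 15.7 CPM with vehicle (log2 0.25 ± 0.23). Vehicle heart 62, at 15.7 CPM, stood apart from the other 5, which reached 8.66 CPM, and without it the Lox value was 0.50 ± 0.18. Without Cmpd60 heart 69 the Lox value was 0.11.

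Leaving out each heart in turn gave log2 fold changes of 0.75 to 0.95 for Scx and 0.50 to 0.68 for Emilin1. The number of genes called over the whole genome lay between 36 and 247 with a heart left out. Vehicle heart 66 detected 17809 genes, where the other vehicle hearts detected 19793 to 21071, and the part of this in the heart values was not tested.

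RefSeq promoters were at hand for 5 of the 10 genes: Emilin1, Fbn1, Ltbp2, Fbln1 and Fbln5. The 250 bases before the start are shown for Emilin1, with the largest heart value of the 5 (log2 0.60), and for Fbn1 (log2 0.10) and Ltbp2 (log2 -0.17), the next and the lowest of the 5. They are written 5′ to 3′ on the gene's strand in build GRCm38.p6, at chr5:30913536-30913785 (plus strand), chr2:125506439-125506688 (minus strand) and chr12:84876492-84876741 (minus strand). Capitals mark CANNTG, the E-box letters that basic helix-loop-helix factors such as scleraxis bind, which read alike on both strands.
Emilin1: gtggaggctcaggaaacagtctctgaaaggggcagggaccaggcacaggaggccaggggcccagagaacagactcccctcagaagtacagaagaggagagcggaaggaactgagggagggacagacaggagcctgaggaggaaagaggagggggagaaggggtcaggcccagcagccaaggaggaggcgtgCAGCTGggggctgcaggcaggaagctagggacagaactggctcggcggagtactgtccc
Fbn1: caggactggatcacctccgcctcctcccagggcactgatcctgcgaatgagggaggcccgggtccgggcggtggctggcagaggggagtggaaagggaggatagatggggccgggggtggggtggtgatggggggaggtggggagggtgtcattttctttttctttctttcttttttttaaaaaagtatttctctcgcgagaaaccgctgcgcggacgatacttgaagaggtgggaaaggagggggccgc
Ltbp2: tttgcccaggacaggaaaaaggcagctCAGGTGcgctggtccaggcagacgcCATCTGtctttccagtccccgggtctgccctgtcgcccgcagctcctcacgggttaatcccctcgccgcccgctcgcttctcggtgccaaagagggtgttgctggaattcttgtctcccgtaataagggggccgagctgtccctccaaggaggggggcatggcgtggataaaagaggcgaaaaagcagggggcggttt
Emilin1 held 1 CANNTG, Fbn1 none and Ltbp2 2, none of them overlapping a match to the other letters searched. CANNTG was held by 66.2% of 32841 promoter stretches of this length. GGGCGG, searched on both strands, was absent from Emilin1 and present once in Fbn1 and in 2 places in Ltbp2, against 32.7% of all stretches with at least 1. CAGAC, the letters of a SMAD site, had 2 matches each in Emilin1 and Ltbp2 and none in Fbn1, against 42.2%.

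In the kidney none of the 10 genes passed edgeR's test, against 0.300% of the 20698 genes tested, and 2 had an unadjusted p below 0.05, Emilin1 and Mfap4, where 11.3% of all genes did. The number of genes called in kidney was 62, and 20 to 131 with a library left out. DESeq2 and limma-voom called none either. Emilin1 lay at 76.0, 94.2, 72.6, 69.4, 105 and 104 CPM in Cmpd60 kidneys 50 to 55 and at 80.2, 68.4, 62.9, 72.6 and 50.5 CPM in vehicle kidneys 45 to 49. Libraries 51, 54 and 55 stood above all vehicle kidneys and the rest overlapped. Kidney 55 detected 18512 genes and kidney 53 detected 19385, where the other Cmpd60 kidneys detected 21832 to 22724 and vehicle kidneys 20069 to 23062. The part of these low numbers in the kidney values was not tested. The log2 fold change was 0.38 ± 0.14 (95% interval 0.11 to 0.65, adjusted p = 0.312). Scx ran from 1.78 to 3.31 CPM with Cmpd60 and from 1.59 to 3.42 CPM with vehicle, a log2 fold change of 0.15 ± 0.25 (-0.34 to 0.64, adjusted p = 0.865).

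Mfap4 had the largest kidney value, log2 0.90 ± 0.37 (adjusted p = 0.376), and it rested largely on 1 library. Cmpd60 kidney 54 lay at 14.2 CPM, the other 5 Cmpd60 kidneys from 2.92 to 5.83 CPM, and vehicle kidneys from 2.35 to 4.07 CPM. Without library 54 the log2 fold change was 0.42. The same kidney was the highest of the 6 Cmpd60 kidneys for 9 of the 10 genes, all but Fbln5, and for Ltbp2 it lay at 21.5 CPM against 4.23 to 6.10 CPM in the others. Among vehicle kidneys, 45 was highest for 5 genes, with Ltbp2 at 17.8 CPM against 5.97 to 8.04 CPM. Leaving out kidney 54 moved Ltbp2 from log2 -0.22 to -0.84 and Mfap5 from 0.13 to -0.36, and leaving out kidney 45 moved Ltbp2 to 0.18, while the count of genes called stayed at 0.

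Marker sums stood beside this. Over 5 fibroblast markers kidney 54 reached 238 CPM and kidney 45 228 CPM, the highest of their groups, whose medians were 164 and 172 CPM. Over 5 macrophage markers kidney 54 reached 266 CPM against 120 to 187 CPM in the other Cmpd60 kidneys. Their part in the matrix values was not tested. Over 5 smooth muscle markers the Cmpd60 kidneys ran from 223 to 307 CPM, with kidney 54 at 286 CPM inside that range.

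**Figure D3:**
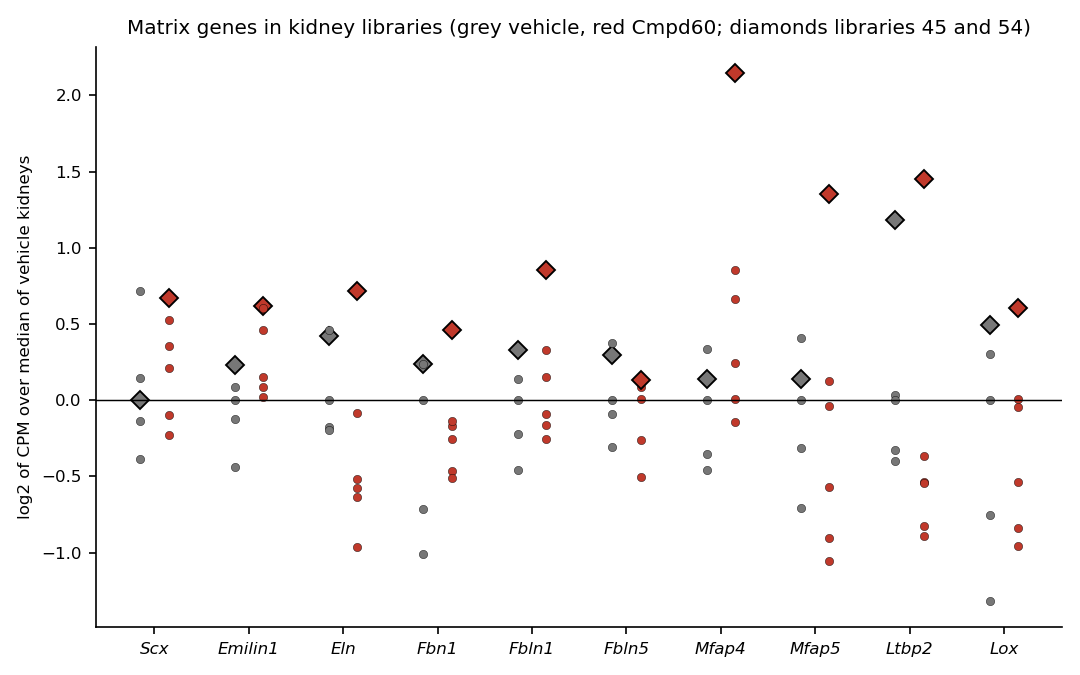
The 10 genes in every kidney library, as log2 of CPM over the median of the vehicle kidneys; grey points are 5 vehicle and red points 6 Cmpd60 kidneys, and diamonds mark libraries 45 (vehicle) and 54 (Cmpd60). Kidney 54 is the highest Cmpd60 kidney for 9 of 10 genes, and kidneys 45 and 54 stand far above the rest for Ltbp2.

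Elastin itself was lower in most Cmpd60 kidneys, without passing the test. Eln lay at 9.68, 12.7, 13.1, 17.8, 30.9 and 12.1 CPM in Cmpd60 kidneys 50 to 55 and from 16.4 to 26.0 CPM in vehicle kidneys. Kidneys 50, 51, 52 and 55 were below every vehicle kidney and 54 above every one. The log2 fold change was -0.36 ± 0.25 (-0.85 to 0.13, adjusted p = 0.622), and without library 54 it was -0.66. The remaining kidney log2 fold changes, of Fbn1, Fbln1, Fbln5, Mfap5, Ltbp2 and Lox, lay between -0.22 and 0.21.

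In the aged brain none of the 10 genes passed, none had an unadjusted p below 0.05, which 13.8% of all genes had, and 0.0205% of the 24438 genes tested passed. That share is 5 genes, and 372 were called without vehicle brain 29 and 1 to 36 without any other brain. DESeq2 and limma-voom also called none of the 10. Scx ran from 2.82 to 4.32 CPM with Cmpd60, median 3.15, and from 2.92 to 4.36 CPM with vehicle, median 3.92. That was a log2 fold change of -0.19 ± 0.14 (-0.45 to 0.08, adjusted p = 0.580), with 2 Cmpd60 brains below all vehicle brains. Emilin1 ran from 2.41 to 4.07 CPM against 2.68 to 5.03 CPM, log2 -0.12 ± 0.16 (-0.43 to 0.18, adjusted p = 0.777). Fbn1 came nearest to the threshold, with 9.02 to 11.7 CPM against 8.27 to 10.7 CPM and log2 0.18 ± 0.09 (adjusted p = 0.372). No gene of the 10 separated the groups in kidney or brain, where 2.30% and 0.925% of all genes did.

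The heart values can be set beside the other tissues. The heart log2 fold change of Scx exceeded that of the brain by 1.04 ± 0.23 (SE) and that of the kidney by 0.70 ± 0.31. Emilin1 in the heart exceeded the brain by 0.72 ± 0.20 and the kidney by only 0.22 ± 0.18. For Eln, Fbn1, Fbln5, Mfap5, Ltbp2 and Lox both differences were within 1 SE. Because the heart value chose the genes, these differences carry no test, and their SE take tissues that share mice as independent. Between kidney and brain, none of the 10 genes differed in its response (0.106% of the 26403 genes tested did). Mfap4 had the smallest p there, with a difference of 1.01 ± 0.48 (unadjusted p = 0.0428, adjusted p = 0.479), and it was the only one of the 10 with an unadjusted p below 0.05, which 10.1% of all genes had. Emilin1 differed by 0.45 ± 0.22 (adjusted p = 0.498).

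**Figure D4:**
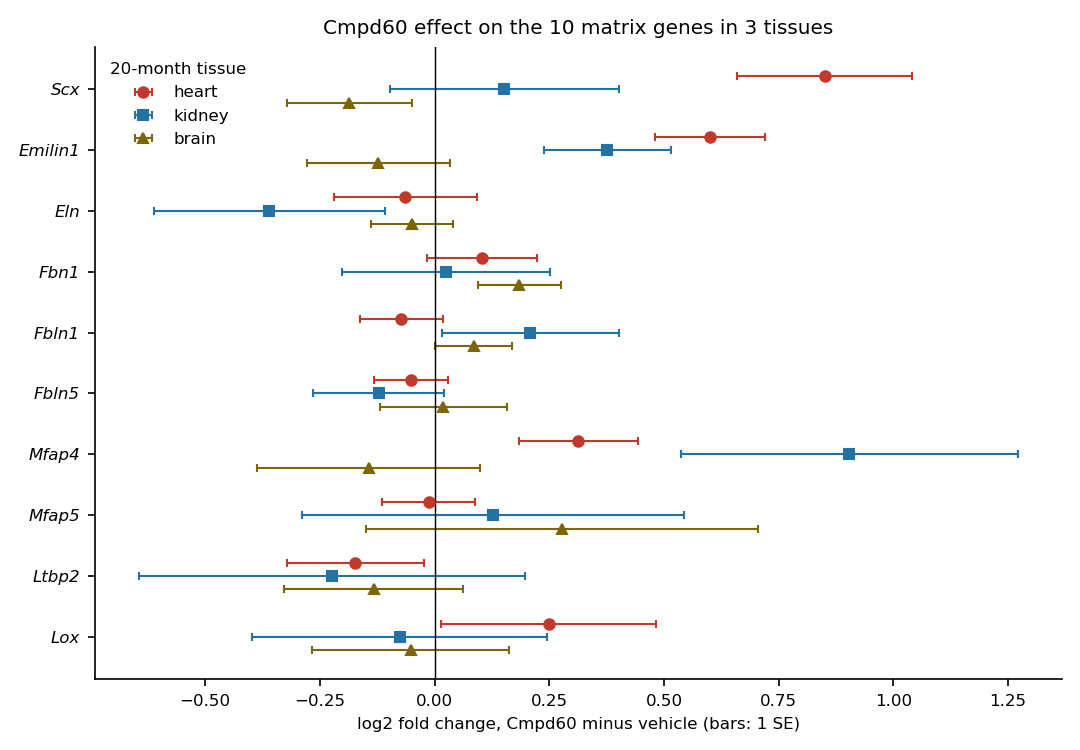
Log2 fold change of Cmpd60 against vehicle for each gene in 20-month heart, kidney and brain, from separate edgeR fits, with bars of 1 SE. Scx and Emilin1 have their largest values in heart, Emilin1 is also positive in kidney, and Mfap4 has its largest value and widest bar among the 3 in kidney.

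Around the 10 genes, 82 further genes of elastic fibres, elastin turnover, tendon matrix, valve development and TGF-β signalling were listed by name. In the heart 81 were tested and 4 rose, where 0.756% of all genes rose, and none fell. An unadjusted p below 0.05 was held by 25 of the 81, where 13.5% of all heart genes had one. The groups were fully separated by 6 of the 81, as by 2.69% of all genes. The lists were chosen with earlier results of these data known, so these counts are a description and not independent of the values. Of 21 other elastic fibre genes, Mmrn2 rose, which encodes a multimerin related to the emilins and made by endothelium. It lay at 74.2 ± 5.87 CPM with Cmpd60 (SD, n = 5) and 60.1 ± 4.37 with vehicle (n = 6), log2 0.30 ± 0.07 (SE, adjusted p = 0.0472). The median over these 21 genes was 0.12. Emilin2, the close relative of Emilin1, had a log2 fold change of 0.47 ± 0.12 and did not pass in edgeR (adjusted p = 0.0705), but did in DESeq2 (adjusted p = 0.00871) and in edgeR with no filter on low counts (adjusted p = 0.0344). Fbn2, Ltbp4 and Loxl1 lay between -0.06 and 0.21. Loxl4 lay at log2 1.01 in DESeq2, the only alternative that called it (adjusted p = 0.0451). Of the 21 genes, 7 had an unadjusted p below 0.05 in edgeR.

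Of 12 genes of elastin breakdown and its inhibitors, Ctsl rose, which encodes the lysosomal protease cathepsin L. It lay at 317 ± 21.4 CPM against 246 ± 23.7 CPM, log2 0.36 ± 0.07 (adjusted p = 0.0252). The median over the list was 0.25, with 10 higher, 2 lower and 5 at an unadjusted p below 0.05. Mmp2, a gelatinase that cleaves elastin, had 0.36 ± 0.09 (adjusted p = 0.0726) and Timp1, a metalloproteinase inhibitor, 0.84 ± 0.21 (adjusted p = 0.0658), so neither passed in edgeR. DESeq2 called both (adjusted p = 0.0103 and 0.00663), as did edgeR with no filter on low counts (adjusted p = 0.0454 and 0.0420), and limma-voom called neither.

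Of 24 valve development genes Adamts9 and Smad6 rose, both of which the study had named from these same hearts, so their listing is not independent of the values. Adamts9, a protease of versican, lay at 38.8 ± 14.2 CPM against 18.2 ± 1.16 CPM, log2 1.09 ± 0.17 (adjusted p = 0.00794). Smad6, an inhibitor of BMP signalling, lay at 26.3 ± 4.05 CPM against 18.4 ± 2.57 CPM, log2 0.52 ± 0.11 (adjusted p = 0.0390). The list's median was 0.05, and Sox9, Nfatc1, Postn and Gata4 lay between -0.09 and 0.10. Adamts9 passed whichever heart was left out, Ctsl without 8 of 11, Smad6 without 4 of 11 and Mmrn2 without 3 of 11. Mmrn2 did not pass with DESeq2 size factors in edgeR.

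None of the 16 tendon matrix genes tested passed in edgeR, and 3 had an unadjusted p below 0.05, where 13.5% of all heart genes did. DESeq2, limma-voom and edgeR with no filter each called 1 of them, Cilp2, a cartilage matrix gene at log2 -0.92 ± 0.23 in edgeR (adjusted p = 0.0696). Tnmd and Mkx, which stand with Scx in tendon, had log2 fold changes of 0.08 ± 0.87 and 0.18 ± 0.35, from means under 1 CPM, and Col1a1 and Col1a2 had 0.29 ± 0.11 (adjusted p = 0.257) and 0.11 ± 0.09. The list's median was 0.09. All 8 TGF-β ligands and readouts had positive log2 fold changes, from 0.18 to 0.54; none passed in edgeR and 5 had an unadjusted p below 0.05, while limma-voom called Tgfb1 and both DESeq2 and edgeR with no filter called Tgfb1 and Smad7. Tgfb1, a ligand, was nearest at 0.35 ± 0.08 (adjusted p = 0.0501) and Smad7, a target and inhibitor, had 0.54 ± 0.13 (adjusted p = 0.0544). The summed level of these 8 genes ran from 281 to 390 CPM in vehicle hearts and from 315 to 650 CPM in Cmpd60 hearts, where library 69 was highest.

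**Figure D5:**
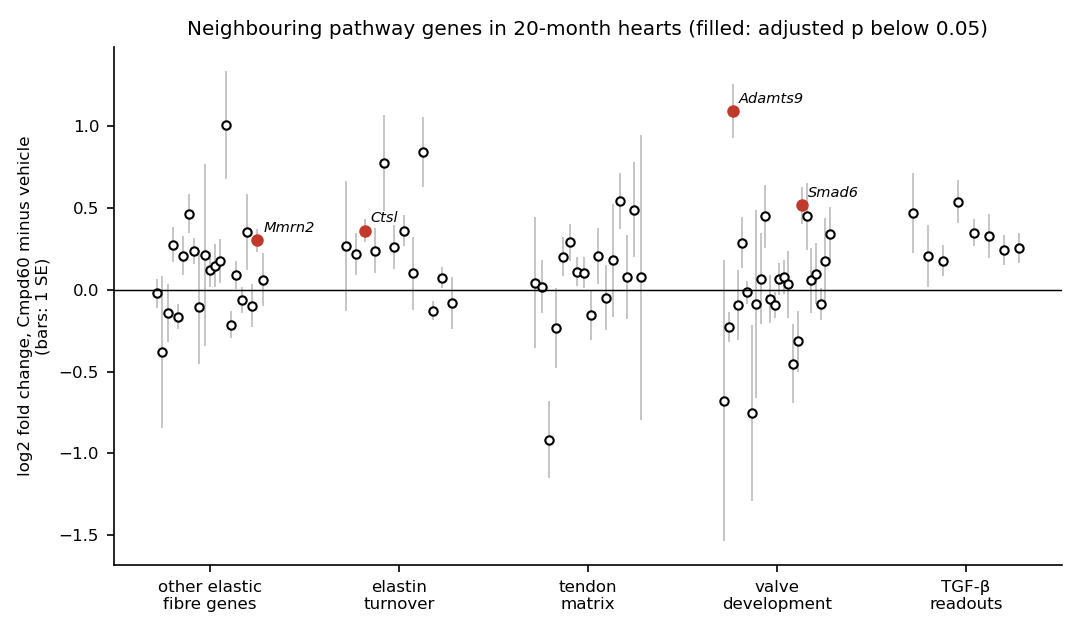
Log2 fold change of Cmpd60 against vehicle in 20-month heart for the 81 tested genes of the 5 lists around the elastic fibre, with bars of 1 SE; filled points passed edgeR's test at an adjusted p of 0.05 and are named. Mmrn2, Ctsl, Adamts9 and Smad6 are filled, and all 8 TGF-β genes lie above 0.

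In kidney and brain edgeR called no gene of the same lists. With unadjusted p below 0.05 there were 8 of 77 tested in kidney and 12 of 78 in brain, beside 11.3% and 13.8% of all genes. The heart risers had log2 fold changes in kidney of 0.11 (Mmrn2), 0.27 (Ctsl), -0.10 (Adamts9) and -0.08 (Smad6), and in brain of 0.26, 0.004, 0.56 and 0.25 in the same order.

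Markers of other cell types of the heart were summed in the same libraries. At an unadjusted p below 0.05 stood 13.5% of all heart genes. All 5 endothelial markers were higher with Cmpd60, none passing and 3 with an unadjusted p below 0.05; their sum ran from 939 to 1047 CPM in vehicle hearts and from 993 to 1357 CPM in Cmpd60 hearts, with library 69 highest. All 5 macrophage markers were also higher, none passing and 3 with an unadjusted p below 0.05, with sums of 126 to 200 CPM against 168 to 209 CPM. All 5 atrial markers were lower, none passing and 2 with an unadjusted p below 0.05, with sums of 2815 to 7044 CPM in vehicle and 2105 to 6102 CPM in Cmpd60 hearts. Heart 71, the Cmpd60 heart lowest for Scx and Emilin1, had the highest atrial sum of its group. The 5 fibroblast markers summed to 255 to 284 CPM in vehicle and 256 to 285 CPM in Cmpd60 hearts. Smooth muscle sums ran from 360 to 605 CPM and from 280 to 731 CPM. The part of these markers in the Scx and Emilin1 values was not tested.

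By pattern over the 11 hearts, the genes most like Scx were Mttp, Csda and Acsl6, with mean absolute differences of z-scored log2 CPM of 0.240, 0.257 and 0.318, where the median gene of 13372 lay at 1.10. Those most like Emilin1 were Mta1, Plxnb2 and Cd97, at 0.213, 0.219 and 0.235, where the median was 1.08. No other member of the 10 was among them. All values share the same 11 libraries and the same scaling, and the genes named lie below the median by the way they were picked.

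In the younger brains none of the 10 genes passed in littermates or in APPSWE-1349 mice, and edgeR called 0% of 23194 genes in either, with 852 and 2195 at an unadjusted p below 0.05. None of the 10 was among those, and DESeq2 and limma-voom called none of the 10. Over the 20 libraries, Emilin1 ran from 0 to 3.67 CPM with a median of 2.64 and was at 0 in 2 libraries, and Mfap5 was at 0 in 7. The 2 libraries at 0 for Emilin1 detected 15044 and 15555 genes, where the highest of the 20 detected 24821. Scx ran from 1.64 to 7.31 CPM. Its log2 fold change was 0.73 ± 0.56 in littermates (adjusted p = 0.999) and -0.34 ± 0.59 in APPSWE-1349 mice (adjusted p = 0.970). Both SE were above the 0.14 of the aged brain. In simulated counts the test recovered 50.5% of genes changed by log2 1 in littermate brains, against 98% in aged brains.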

How the data were processed

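The authors made stranded libraries from mRNA captured on oligo-dT beads and sequenced them; per the submitters' processing notes the reads were trimmed with Trimmomatic 0.32, aligned with HISAT2 2.1.0 and counted per Ensembl gene, by read direction, with HTSeq 0.11.0. The genome build is not given in the sources used here. The deposited counts are not normalized. Summary lines were left out. Symbols were matched to 32651 of 54232 genes.

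Counts were scaled by TMM and tested with edgeR 4.0.16's quasi-likelihood test in R 4.3.3, with Benjamini-Hochberg adjustment over the genes that exceeded 2 counts in 3 or more fitted libraries. Each aged tissue was fitted alone, and the 19 younger brains together. SE is the log2 fold change over the root of F. CPM use TMM sizes computed within each aged tissue and within the younger brains. Log2 CPM use a prior count of 2, and levels per kb the merged exons of GENCODE vM1. Intervals are 1.96 SE. Alternatives were DESeq2 1.42.0, limma-voom (limma 3.58.1), DESeq2 size factors, other filters, thinned counts and each library left out, and for the younger brains also the library of unsure treatment in either group and only the groups compared. The test was checked on simulated counts with 200 well counted genes changed by log2 1 in either direction. It recovered 90% of them in heart, 85% in kidney, 98% in aged brain and 50.5% in littermate brain. For the kidney to brain difference in response it recovered 75%. The APPSWE-1349 comparison was not simulated.

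The 10 genes and all lists were chosen with earlier results of these data known. Genes named are the 10; up to 3 per list, direction and comparison with the smallest p past the threshold; Smad6, Adamts9 and Bop1; and the 3 most like Scx and Emilin1 among genes of at least 1 CPM on average. Others named in a list's account were picked after their values were seen. Replicate libraries come from separate mice as far as the labels tell, and no pair agreed within sampling noise.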

Additional observations from a re-analysis of the deposited data

Results flagged for a closer look

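Within each group of 4 to 6 libraries, the highest and lowest value of each gene was compared with the rest on the log2 CPM scale by Dixon's rule, which picks out about 1 in 20 groups by chance. It picked 8 of 100 groups, 3 in aged tissue and 5 in the younger brains. Ltbp2 lay at 21.5 CPM in Cmpd60 kidney 54, where the other 5 ran from 4.23 to 6.10 CPM, and at 17.8 CPM in vehicle kidney 45, where the other 4 ran from 5.97 to 8.04 CPM. Lox lay at 15.7 CPM in vehicle heart 62, above 6.12 to 8.66 CPM in the other 5.

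In littermate brains, 1 vehicle library was at 0 CPM for Emilin1, Mfap4 and Lox, where the other 4 held at least 2.79, 0.969 and 0.533 CPM. The same library was the highest vehicle library for Fbn1 (35.1 CPM) and Eln (16.2 CPM), and it detected 15044 genes. 1 Cmpd60 library, with 15084 genes detected, held 0.247 CPM of Emilin1 against 2.63 to 3.67 CPM in the other 4. Another Cmpd60 library held 8.66 CPM of Fbn1 against 10.4 to 11.1 CPM. Littermate brains other than those at 15044 and 15084 detected 18804 to 24821 genes. The part of the low number of genes detected in these values was not tested. No gene of the 10 differed between kidney and brain in its response to Cmpd60.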

How the results depend on the processing

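The count of the 10 genes called was 0 in kidney, aged brain, littermate brain, APPSWE-1349 brain and the kidney to brain difference in response under every alternative run. Between vehicle kidney and brain it was 9 or 10. In the heart it was 2 under the 6 alternatives of tool, scaling, filter and depth, and between 0 and 2 with a heart left out; it was 0 without heart 63, 64, 66, 67, 69 or 72, 1 without 3 others and 2 without 65 or 71. The cause was not tested. The number of list genes called in the heart was 4, 3 with DESeq2 size factors in edgeR, 11 with DESeq2 and 10 with no filter on low counts, and it ran from 1 to 6 with a heart left out; the cause was not tested. Over all genes, edgeR called 229 in heart, 62 in kidney and 5 in brain, and DESeq2 called 746, 429 and 429; without a filter edgeR called 102 in brain. In the younger brains DESeq2 called 4 genes in littermates and 22 in APPSWE-1349 mice, none of the 10. With kidney 54 left out, Fbn1 went from log2 0.02 to -0.13, which was no call in either fit. No paired analysis was possible because the replicate numbers are library numbers that no 2 groups share. Counts limit Scx, with as few as 54 reads in a heart, and Mfap5 in brain, with as few as 1.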
